A study of Mus musculus with 19 samples.

Results

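Gene expression in whole mouse liver was compared between a high-fat and a normal diet in 2 genotypes, and the quantity followed here is the part of the diet response that differed between them. For each gene the diet effect is the mean log2 value on the high-fat diet (HFD) minus that on the normal diet (ND). The interaction is the diet effect in KO livers minus the diet effect in WT livers, so that a positive interaction means a higher diet effect in KO. It was taken over all 12 arrays whose sample titles end in KO HFD, KO ND, WT HFD or WT ND, out of 19 arrays in the series, with 3 arrays in each of the 4 groups. All 22180 genes with a usable probe set were tested.

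The KO HFD and WT HFD mice had eaten the high-fat diet for 4 weeks and the KO ND and WT ND mice the normal diet, and all were 2 to 3 months old. The codes KO, TG and WT are not explained in the labels, and Kcp appears just in the series title, so that the altered allele, its extent and the tissue in which it acts are not known here. Sex, strain, litter, batch and hour of harvest are not given in the labels. The style of the animal numbers differs between the diets, so that diet and cohort cannot be told apart. In each of the 4 groups the animal numbers are consecutive, and so are the running numbers of the titles. Within a diet, genotype and the order of numbering cannot be told apart either. Replicates count as separate mice because every title has a different animal number. The remaining 7 arrays, of TG livers on both diets, were kept out of the interaction and served only to show where another genotype lay.

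Kcp is a secreted protein with cysteine-rich domains, known in mice to enhance BMP signalling and to dampen TGF-beta signalling outside the cell. High-fat feeding loads hepatocytes with fatty acids, which are esterified and stored in lipid droplets, burned in mitochondria and peroxisomes, or exported on lipoproteins. Liver expression also follows a circadian clock, in which Arntl and Clock drive the genes of their own repressors, among them the Per proteins and Ciart, and which turns haem, lipid and glucose genes up and down over the day, partly through feeding and glucocorticoids.

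The arrays of 1 group correlated across genes with r between 0.9876 and 0.9914, and the lowest mean, 0.9883, was that of WT HFD replicate 1 with the other arrays of its group. Hepatocyte markers were high on every array, with a mean level over 5 markers of 10.76 to 10.81 in KO HFD, 10.74 to 10.90 in KO ND, 10.65 to 10.88 in WT HFD and 10.87 to 10.94 in WT ND. Markers of adipocytes averaged at most 0.96 on any of the 12 arrays, and the 1 measured marker of red cells was at most 1.20. Kcp itself was dim, at 1.90, 2.17 and 1.97 in KO HFD, 2.15, 1.64 and 2.30 in KO ND, 1.77, 2.51 and 2.42 in WT HFD and 2.41, 2.82 and 2.42 in WT ND. Its interaction was 0.30 (adjusted p = 0.788), and since the place of its probes relative to the altered part is not known here, its level is no check of that label.

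Of the 22180 genes 237, or 1.07%, had an interaction with an adjusted p under 0.05 in limma and are said below to be called. Positive interactions numbered 125 (0.564% of genes tested) and negative ones 112 (0.505%). The size of the called interactions ran from 0.71 to 5.27 on the log2 scale with a median of 1.42, and 67 were at least 2. The median interaction of all genes was 0.00047. With no adjustment 2404 genes had p under 0.05. Of the called genes 207 carry a gene name, and the other 30 are predicted genes, small RNAs, receptors of smell or pseudogenes and are only counted. A mean log2 value below 2, a range where background makes differences look small, was found in 26 of the called genes. The count depended on single arrays: it was 97 without KO ND replicate 2, 101 without WT ND replicate 2, 107 without WT HFD replicate 3, 120, 143 and 128 without KO HFD replicates 1, 2 and 3, 140 without WT HFD replicate 1, 153 without KO ND replicate 3 and 157 without WT ND replicate 1. Whichever 1 of the 12 arrays was left out, 74 genes kept their call, and no called gene changed sign in any of these fits.

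For most called genes the diet effect had opposite signs in the 2 genotypes, and it passed the test in 1 genotype at most. The signs were opposite in 209 of the 237 called genes, or 88.2%, against 49.8% of all genes, a share that the contrast itself favours. Across all genes the diet effect in KO was called in 219 (0.987% of genes tested), with 114 rising (0.514%) and 105 falling (0.473%). In WT it was called in 245 (1.1%), with 146 rising (0.658%) and 99 falling (0.446%). Among the 112 negative interactions, 36 genes fell on HFD in KO alone and 54 rose on HFD in WT alone, while 2 did both, 1 fell in both genotypes and 19 passed in neither. The 125 positive interactions held 43 genes that rose on HFD in KO alone, 41 that fell on HFD in WT alone, 4 that did both, 1 that fell in both and 36 that passed in neither. That an effect passed in 1 genotype alone is here no separate finding, since the interaction is the test of the difference.

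**Figure D1:**
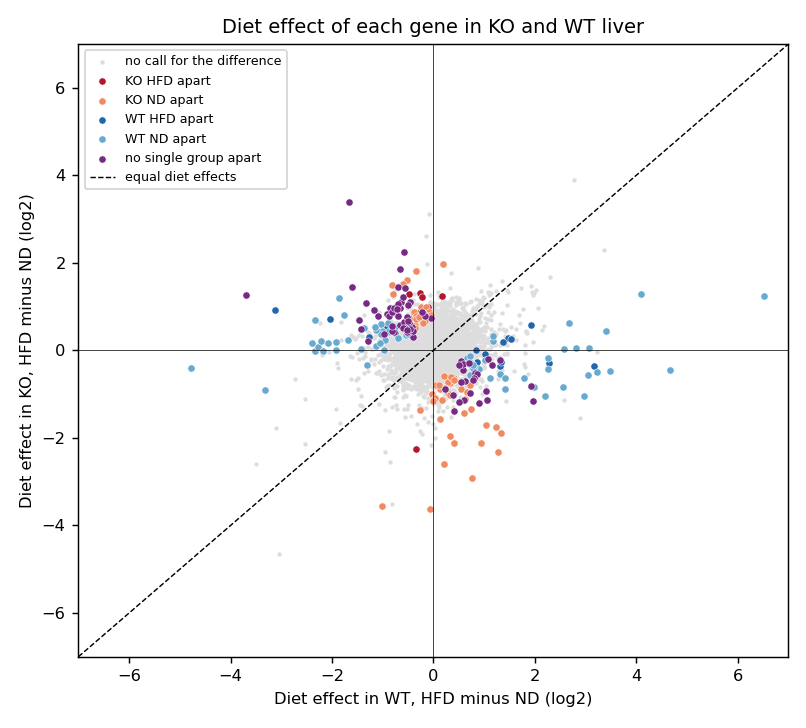
Each point is a gene, with the diet effect in WT livers on the x axis and that in KO livers on the y axis (both HFD minus ND, log2), grey where the interaction was not called and coloured by the group that stood apart where it was. Called genes lie away from the dashed line of equal effects, and 209 of 237 are in the quadrants of opposite sign.

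The same interactions can be read as a difference between genotypes that was present on 1 diet and smaller on the other. KO differed from WT in 622 genes on ND (2.8% of genes tested), higher in 299 (1.35%) and lower in 323 (1.46%), and in 71 on HFD (0.32%), higher in 45 (0.203%) and lower in 26 (0.117%). Among the 237 called genes the KO to WT difference passed on ND in 186, higher in KO in 91 and lower in 95, and on HFD in 28, higher in 20 and lower in 8. The genotype difference was larger on ND than on HFD in 190 called genes, or 80.2%, against 53.4% of all genes. The highest and the lowest of the 4 group means were KO ND and WT ND, in either order, in 124 called genes, or 52.3%, against 18.9% of all genes. The contrast itself favours pairs of groups that enter it with opposite signs, and this is such a pair. KO HFD and WT HFD, another such pair, were the extremes in 8.44% of called genes, against 14.6% of all genes.

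To say from which group an interaction came, the group was taken whose removal left the other 3 means closest together, and it was said to stand apart when its mean lay farther from the nearest other mean than the range of those 3. KO ND stood apart in 64 of the 237 called genes, higher in 37 and lower in 27, and WT ND in 73, higher in 36 and lower in 37. KO HFD stood apart in only 9 and WT HFD in 17, and no single group did in 74. The shares were 3.8% of called genes for KO HFD, 27.0% for KO ND, 7.2% for WT HFD and 30.8% for WT ND, against 12.5%, 14.8%, 12.5% and 15.2% of all genes in the same order. The called genes were chosen by the same 4 means, so these counts are a description with no test.

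**Figure D2:**
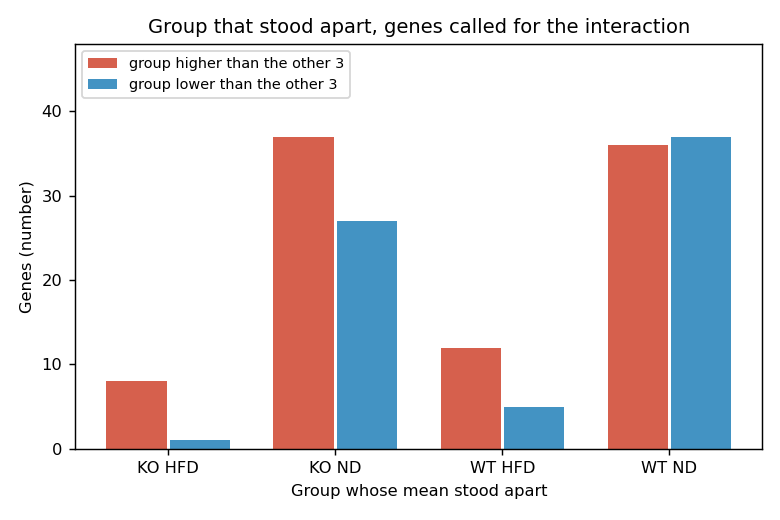
Bars count the called genes (y axis) in which the group on the x axis stood apart from the other 3, split by whether it was higher or lower. The ND groups hold 64 (KO) and 73 (WT) genes, and the HFD groups 9 (KO) and 17 (WT).

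The 2 largest interactions were those of Ctse and Mme, which were far lower in WT ND than in the other 3 groups. Ctse, which encodes the aspartic protease cathepsin E, had log2 values of 7.52, 7.97 and 6.92 in KO HFD, 6.36, 6.08 and 6.26 in KO ND, 8.56, 7.69 and 8.77 in WT HFD and 1.44, 2.04 and 2.01 in WT ND. Mme, the cell-surface peptidase neprilysin, had 7.54, 7.44 and 6.74 in KO HFD, 7.92, 7.59 and 7.56 in KO ND, 7.78, 7.06 and 7.35 in WT HFD and 3.38, 2.71 and 2.12 in WT ND. In neither gene did a WT ND array come within 2 log2 units of any other. The diet effect of Ctse was 1.24 in KO and 6.51 in WT, which gave an interaction of -5.27 (SE 0.42, adjusted p = 0.000106, limma). For Mme the diet effects were -0.45 in KO and 4.66 in WT, and the interaction was -5.11 (SE 0.42, adjusted p = 0.000106). The TG arrays, which the fit did not use, lay between 6.10 and 7.41 on HFD and between 6.76 and 7.17 on ND for Ctse, and between 5.76 and 7.65 on HFD and between 6.04 and 6.76 on ND for Mme, with the 3 groups other than WT ND.

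Other genes had WT ND as the only high group. Asic5, a member of the acid-sensing ion channel family, was at 4.04, 3.81 and 3.71 in KO HFD, 4.67, 4.57 and 4.99 in KO ND, 4.61, 4.38 and 4.18 in WT HFD and 7.47, 7.84 and 7.80 in WT ND. Its interaction was 2.42 (SE 0.23, adjusted p = 0.000397), with a fall on HFD of 3.32 on the log2 scale in WT. The imprinted noncoding RNA Rian was at 0.86, 0.51 and 0.73 in KO HFD, 0.67, 0.39 and 0.38 in KO ND, 0.34, 0.78 and 0.66 in WT HFD and 3.23, 2.32 and 2.90 in WT ND, so that it was above the dim range in WT ND alone (interaction 2.44, adjusted p = 0.00187). The ribosomal protein gene Rps3a1 (2.24, adjusted p = 0.00604), Adam11 of the ADAM family of membrane proteins (2.36, adjusted p = 0.00984) and Sugct, which makes glutaryl-CoA in the breakdown of lysine (2.16, adjusted p = 0.00173), were also highest in WT ND. Rps3a1 belongs to a family with many pseudogenes, whose transcripts can share probes. Asic5, Rian and Rps3a1 were low in all 7 TG arrays too, whereas TG ND lay with WT ND for Adam11 (4.01, 3.65 and 3.59) and Sugct (6.60, 6.18 and 6.52).

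Further genes high in WT ND had smaller differences relative to their spread. Selenbp2, a selenium-binding protein of male-biased expression in mouse liver, was at 7.25, 5.32 and 6.49 in KO HFD, 6.23, 5.79 and 8.21 in KO ND, 6.88, 5.75 and 4.87 in WT HFD and 10.28, 10.67 and 10.91 in WT ND (interaction 4.39, SE 0.89, adjusted p = 0.0404). The chemokine Ccl9 (1.92, adjusted p = 0.0479) and the glutathione transferase Gstp1 (1.46, adjusted p = 0.0472) also fell on HFD in WT, by 1.92 and 1.43, and had diet effects of 0.00 and 0.03 in KO. Selenbp2 lost its call without 9 of the 12 arrays, and Ccl9 and Gstp1 without 10, with the highest adjusted p at 0.0983 and 0.121 without KO ND replicate 2 for Selenbp2 and Gstp1 and 0.123 without KO HFD replicate 1 for Ccl9. Apom, the lipocalin that carries sphingosine phosphate on lipoproteins, kept its call in each of these fits (interaction 1.21, SE 0.20, adjusted p = 0.0171). Gstp1 and Selenbp2 have close copies whose transcripts can share probes.

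Clock genes and genes known to follow the clock in liver were among those low in WT ND, where they made up 6 of 37. Of the 30 genes measured in the 3 clock lists 9 were called (30%), against 1.07% of all genes. The lists were written with earlier results of these data known, where clock genes stood beside KO against WT on ND. That difference is part of the interaction, so the share is a description and no independent support. A mean below 2 was found in 11.0% of called genes and 56.6% of genes tested, and the part of expression level in the share was not tested. Of 13 clock-driven liver genes measured, 5 had a negative and 1 a positive interaction among those called, with a list median of -2.05. Of 12 genes of the negative limb and the PAR bZIP family 2 were negative and 1 positive (median -0.48), and of 5 genes of the positive limb none was called by limma (median 0.71, and 3 of the 5 had an unadjusted p under 0.05). The list medians stand beside 0.00047 for all genes. Usp2, a deubiquitinase, was at 6.41, 6.29 and 5.94 in KO HFD, 7.01, 7.35 and 7.40 in KO ND, 6.14, 6.16 and 6.18 in WT HFD and 3.37, 2.57 and 3.64 in WT ND. The 2 HFD groups overlapped and the ND groups lay on either side of them, which gave an interaction of -4.01 (SE 0.33, adjusted p = 0.000106).

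The repressor gene Ciart showed the same order, with 4.04, 4.82 and 4.37 in KO HFD, 4.98, 5.61 and 5.73 in KO ND, 4.67, 3.74 and 4.33 in WT HFD and 2.23, 1.59 and 2.29 in WT ND (interaction -3.24, SE 0.40, adjusted p = 0.00241). Per1, a repressor that glucocorticoids also induce, was at 5.47, 5.64 and 5.56 in KO HFD, 5.93, 6.29 and 6.34 in KO ND, 5.50, 5.54 and 5.25 in WT HFD and 3.94, 3.93 and 3.05 in WT ND (interaction -2.42, SE 0.30, adjusted p = 0.00241). No WT ND array reached an array of another group in either gene, and each KO ND array lay above all KO HFD and WT HFD arrays. Wee1, the kinase that holds back mitosis (-3.00, adjusted p = 0.0052), Alas1, the first enzyme of haem synthesis (-2.82, adjusted p = 0.000798), and Coq10b, which binds coenzyme Q in mitochondria (-2.05, adjusted p = 0.000606), were low in WT ND as well. Wee1 was at 5.89, 5.52 and 5.07 in KO HFD and 5.41, 5.43 and 5.47 in KO ND, which overlapped, against 5.35, 4.76 and 5.70 in WT HFD and 1.76, 1.98 and 2.89 in WT ND.

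Nr1d1, the nuclear receptor that represses Arntl, ran the other way and had KO ND as the low group, at 6.16, 5.69 and 7.05 in KO HFD, 4.98, 4.51 and 4.57 in KO ND, 6.54, 6.59 and 6.27 in WT HFD and 6.55, 7.10 and 7.31 in WT ND. Its interaction of 2.13 (adjusted p = 0.0302) was lost without 7 arrays, with an adjusted p of 0.0833 without KO ND replicate 2. The vasopressin receptor gene Avpr1a was also positive (2.09, adjusted p = 0.033, lost without 8 arrays and at 0.0856 without WT HFD replicate 1). Other clock genes moved with diet in WT, yet their interaction was not called. Arntl was at 2.13, 2.91 and 2.58 in KO HFD, 4.00, 3.71 and 3.26 in KO ND, 2.68, 2.98 and 3.33 in WT HFD and 5.09, 6.33 and 5.16 in WT ND (interaction 1.42, adjusted p = 0.229), and Dbp had an interaction of -1.08 (adjusted p = 0.289).

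A clock score was formed for each array, the mean log2 value of 9 clock genes less the mean of 5 others. The 9, grouped here as evening genes, were Per1, Per3, Nr1d1, Nr1d2, Dbp, Tef, Hlf, Ciart and Bhlhe41. The 5, grouped as morning genes, were Arntl, Clock, Npas2, Nfil3 and Cry1. Nr1d1, whose interaction ran the other way from those of Ciart and Per1, is thus averaged with them. The score was 1.83, 1.47 and 1.98 in KO HFD, 0.88, 1.08 and 1.21 in KO ND, 1.65, 1.60 and 1.35 in WT HFD and -0.39, -1.78 and 0.05 in WT ND. WT ND was below the other 3 groups on every array and also varied most, the SD being 0.26 in KO HFD, 0.17 in KO ND, 0.16 in WT HFD and 0.96 in WT ND (n = 3 each). The diet effect on the score was 0.70 in KO and 2.24 in WT, a difference of -1.54. TG HFD arrays scored between 0.97 and 1.74 and TG ND arrays between -1.85 and -1.12. Hours of harvest are not in the labels, and the part of the clock state in the interactions of other genes was not tested beyond the fit with the score given further on.

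**Figure D3:**
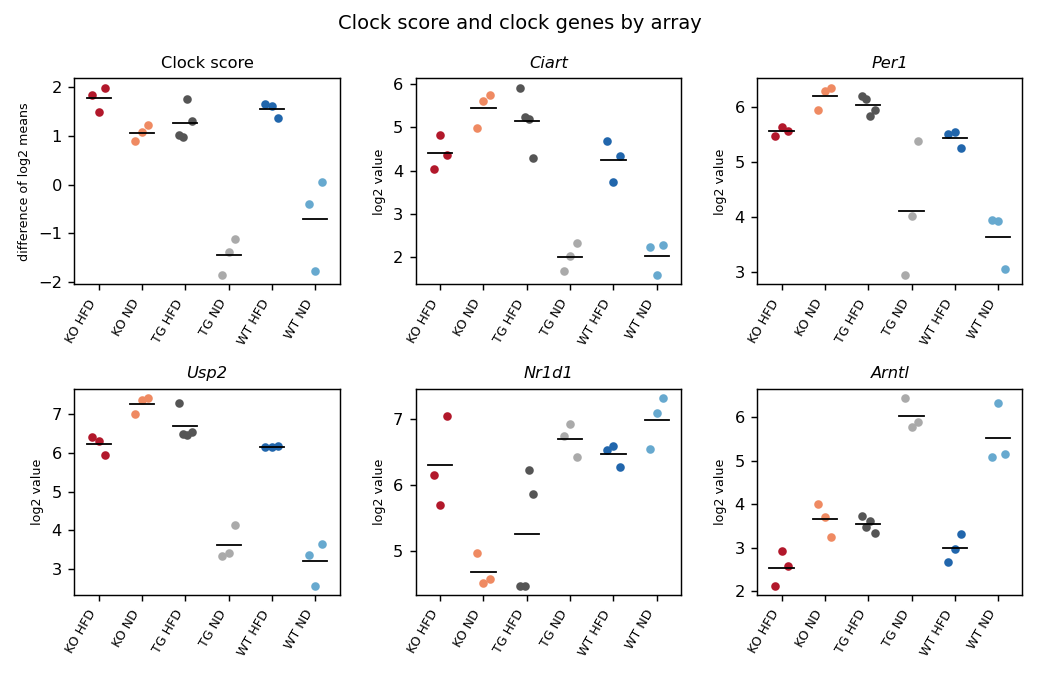
The clock score (difference of log2 means) and the log2 values of Ciart, Per1, Usp2, Nr1d1 and Arntl are plotted for each array (points) with the group mean (bar). TG ND and WT ND lie apart from the other groups in the score, in Ciart and in Usp2. In Nr1d1 KO ND is the lowest of the KO and WT groups, and TG HFD arrays spread from 4.48, below every KO ND array, to 6.22.

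Of the 9 called clock genes 7 had a negative and 2 a positive interaction, and the 300-base RefSeq promoter windows (assembly GRCm38.p6) of the called genes were searched for the E-box CACGTG, which reads the same on both strands, and for the D-box TTATGTAA on both strands. The E-box was in 17 of 83 genes with a negative called interaction and a promoter entry (20.5%), in 10 of 94 with a positive one (10.6%) and in 2187 of all 27025 genes with a promoter entry (8.09%). Those 27025 are not limited to the 22180 genes tested or to genes expressed in liver. A mean below 2 was found in 11.0% of called genes and 56.6% of genes tested. The part of expression level in these shares was not tested. The D-box was in 2 of 83, 1 of 94 and 299 of 27025 (2.41%, 1.06% and 1.11%). Among the clock genes called, Ciart held 3 E-boxes, Per1 held 1, and Coq10b held 1 E-box and 1 D-box, read as TTACATAA on the gene's strand. The windows of Usp2, Alas1, Lpin1, Nr1d1 and Avpr1a held neither motif. Wee1, the remaining called clock gene, had no promoter entry and was not searched. The stretches with the matches, upstream of the transcript start that the RefSeq table uses, are given 5′ to 3′ on the gene's strand with the motifs in capitals. They lie at chr3:95882254-95882358 (minus strand) for Ciart, chr11:69098759-69098813 (plus strand) for Per1 and chr1:55052590-55052709 (plus strand) for Coq10b. For Per1 that start, position 69098949, is inside the annotated gene, which begins at 69095108.
Ciart: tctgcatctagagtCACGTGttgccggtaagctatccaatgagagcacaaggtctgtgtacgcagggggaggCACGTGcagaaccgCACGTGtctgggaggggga
Per1: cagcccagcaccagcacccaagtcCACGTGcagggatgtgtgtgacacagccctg
Coq10b: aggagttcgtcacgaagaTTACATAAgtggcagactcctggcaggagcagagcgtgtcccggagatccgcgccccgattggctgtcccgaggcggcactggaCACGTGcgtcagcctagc

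The 6 called genes of lipid synthesis, storage and oxidation all had negative interactions, and 4 of them had WT ND as the low group. In the list of fatty acid and triglyceride synthesis 4 of 28 genes measured were negative, against 0.505% of all genes (list median -0.37). None was positive. The 4 were Lpin1, Thrsp, Mogat1 and Lpin2, of which Lpin1 is also in the list of clock-driven liver genes. Thrsp, a nuclear protein that promotes lipogenesis, was at 10.05, 10.33 and 8.97 in KO HFD, 10.66, 10.57 and 10.63 in KO ND, 10.25, 9.82 and 10.37 in WT HFD and 7.13, 7.83 and 7.80 in WT ND (interaction -3.40, SE 0.42, adjusted p = 0.00238). Mfsd2a, the carrier of lysophosphatidylcholine, stood in no list here and was at 9.07, 9.51 and 8.40 in KO HFD, 9.36, 9.56 and 9.51 in KO ND, 9.79, 9.07 and 9.89 in WT HFD and 6.66, 6.17 and 6.26 in WT ND (interaction -3.71, SE 0.38, adjusted p = 0.000565). Both genes rose on HFD in WT, by 2.56 and 3.22, and had diet effects of -0.84 and -0.49 in KO that did not pass. Lpin2, like Lpin1 a phosphatidate phosphatase, had an interaction of -1.28 (adjusted p = 0.0461), and Mogat1, a monoacylglycerol acyltransferase, one of -2.69 (adjusted p = 0.0472). These 2 calls were lost without 10 and 9 arrays, with adjusted p up to 0.121 without KO ND replicate 2 for Lpin2 and 0.123 without KO HFD replicate 1 for Mogat1.

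Of 66 genes of storage, oxidation and export of lipid 4 were called (6.06%), against 1.07% of all genes. As for the clock lists, the part of expression level in this share was not tested. Of 17 lipid droplet and lipolysis genes 1 was called, Mgll, the lipase of monoacylglycerols (-1.43, adjusted p = 0.0302; list median -0.46), and of 34 genes of fatty acid oxidation 1, the peroxisomal thioesterase Acot3 (-3.61, adjusted p = 0.0364; list median -0.43). Among 15 apolipoprotein and assembly genes Apoa4 was negative (-2.04, adjusted p = 0.033) and Apom positive, with a list median of -0.14. Apoa4 was at 11.07, 11.31 and 11.03 in KO HFD, 10.92, 10.84 and 9.74 in KO ND, 11.40, 11.15 and 11.48 in WT HFD and 8.16, 8.88 and 8.96 in WT ND. Mgll, Acot3 and Apoa4 lost their calls without 10, 11 and 9 arrays, at up to 0.0783 without KO HFD replicate 1, 0.091 without WT ND replicate 2 and 0.0896 without KO ND replicate 2. By limma none of 13 genes of fatty acid uptake was called (list median -0.33, 4 with an unadjusted p under 0.05), nor any of 19 of cholesterol synthesis (list median 0.03, 0 at that level).

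The genes of diet response named whatever their value did not pass. The droplet proteins Cidec and Cidea had interactions of -4.44 (SE 0.99, adjusted p = 0.0574) and -3.71 (SE 1.41, adjusted p = 0.34). Cidea ranged from 0.94 to 5.08 in KO HFD and from 2.59 to 6.11 in KO ND, against 2.13 to 4.41 in WT HFD and 0.59 to 1.63 in WT ND, so that 3 of the 4 groups overlapped widely. The fatty acid receptor Cd36 was at -1.35 (SE 0.30, adjusted p = 0.0571), Fasn at -0.82 (SE 0.60, adjusted p = 0.678), Scd1 at -0.23 (adjusted p = 0.854), Pparg at -1.03 (adjusted p = 0.489) and Fgf21 at -0.60 (adjusted p = 0.814). Cyp7a1, the rate-limiting enzyme of bile acid synthesis, had -2.39 (SE 0.58, adjusted p = 0.081).

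Where KO ND stood apart it was the highest group in 37 of 64 genes. Among these were Lpin1, Fkbp5 and Pck1, which are known to respond to fasting or glucocorticoids. Lpin1, which removes phosphate from phosphatidic acid and coactivates PPARA, was at 7.58, 8.61 and 7.23 in KO HFD, 9.59, 10.52 and 10.30 in KO ND, 7.19, 6.77 and 7.23 in WT HFD and 5.61, 5.96 and 5.78 in WT ND. It fell on HFD by 2.33 in KO (adjusted p = 0.0066) and its diet effect in WT was 1.28 (adjusted p = 0.079), an interaction of -3.61 (SE 0.44, adjusted p = 0.00238). Fkbp5, a chaperone of the glucocorticoid receptor that this receptor induces, was at 3.71, 4.24 and 3.98 in KO HFD, 5.56, 6.23 and 6.48 in KO ND, 4.18, 3.62 and 3.41 in WT HFD and 3.23, 3.43 and 3.35 in WT ND (interaction -2.51, SE 0.34, adjusted p = 0.0042). Every KO ND array of both genes lay above every other of the 12 arrays. In the list of glucocorticoid and fasting targets 2 of 14 genes were called, against 1.07% of all genes, with a list median of -0.58. These were Fkbp5 and Per1, and Per1 had WT ND apart, not KO ND. On HFD 5 of the 14 fell in KO and 1 rose in WT, against 0.473% and 0.658% of all genes.

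Pck1 and Pfkfb3 of glucose metabolism also had KO ND as the high group. Pck1, which starts gluconeogenesis from oxaloacetate, was at 9.84, 10.02 and 10.09 in KO HFD, 10.78, 11.14 and 11.27 in KO ND, 10.25, 10.24 and 10.10 in WT HFD and 10.35, 10.00 and 10.13 in WT ND, with no overlap between KO ND and the rest. Its interaction was -1.12 (SE 0.21, adjusted p = 0.0264), and it was the only one called of 19 genes of gluconeogenesis and glycogen, whose list median was -0.52. Of 11 genes of glycolysis and glucose uptake only Pfkfb3, the activator of glycolysis through fructose bisphosphate, was called (-3.06, SE 0.47, adjusted p = 0.00964; list median -0.39), with group means of 2.45 in KO HFD, 4.56 in KO ND, 2.95 in WT HFD and 2.00 in WT ND. Igfbp1, a fasting-induced secreted protein of the gluconeogenesis list, had -2.02 (adjusted p = 0.144). The call of Pck1 was lost without 8 arrays, with an adjusted p of 0.0743 without WT ND replicate 2.

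Regulators were found in the same set. Onecut1, a hepatocyte transcription factor, had an interaction of -2.97 (SE 0.50, adjusted p = 0.0171) and Tcim, a small regulator of transcription, one of -3.23 (SE 0.48, adjusted p = 0.00795). The copper monooxygenase relative Moxd1 was at 0.71, 1.18 and 1.08 in KO HFD, 3.23, 4.59 and 3.88 in KO ND, 1.02, 3.51 and 1.70 in WT HFD and 1.67, 1.04 and 1.26 in WT ND, where WT HFD replicate 2 lay within the range of KO ND (interaction -3.66, adjusted p = 0.0301). Stress genes gave 1 call each in their lists, always with KO ND highest: the heat-shock protein Hsph1 (-1.60, 1 of 15 measured), the transcription factor Cebpb (-1.30, 1 of 15 in the integrated stress response), the endoplasmic reticulum protein Herpud1 (-1.07, 1 of 14 in the unfolded protein response) and the phosphatase Dusp1 (-1.69, 1 of 13 immediate-early genes). List medians were -0.43, -0.0015, 0.02 and 0.12 in the same order, and 1.07% of all genes were called. Calls were lost without 8 arrays for Moxd1, 10 for Hsph1, 11 for Cebpb, 7 for Herpud1 and 4 for Dusp1, and the highest adjusted p, between 0.0561 and 0.121, came for all 5 without KO ND replicate 2.

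KO ND was the low group in 27 called genes, among them Cldn1, Nr1d1, Avpr1a and Id2. Cldn1, the tight junction protein claudin-1, was at 7.99, 7.84 and 7.99 in KO HFD, 6.67, 6.25 and 6.43 in KO ND, 7.58, 8.05 and 7.63 in WT HFD and 8.72, 8.62 and 8.38 in WT ND. The 2 HFD groups overlapped, with KO ND below and WT ND above them. Cldn1 rose on HFD by 1.49 in KO (adjusted p = 0.0032) and fell on HFD by 0.82 in WT (adjusted p = 0.024), for an interaction of 2.31 (SE 0.22, adjusted p = 0.000424). Opposite diet effects that both passed were found in 6 genes, the others being Nampt, Nrep, Krt18, Efna1 and 1 gene that is only counted. These 4 names were chosen after their values were seen. Nampt, the rate-limiting enzyme of NAD salvage, was at 6.61, 6.68 and 6.34 in KO HFD, 7.53, 7.29 and 7.42 in KO ND, 6.66, 6.58 and 6.80 in WT HFD and 5.44, 5.26 and 5.13 in WT ND (interaction -2.28, SE 0.19, adjusted p = 0.000106). Nrep, Krt18 and Efna1 had interactions of -2.08, 1.74 and 1.69 (adjusted p = 0.000793, 0.00146 and 0.00409).

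**Figure D4:**
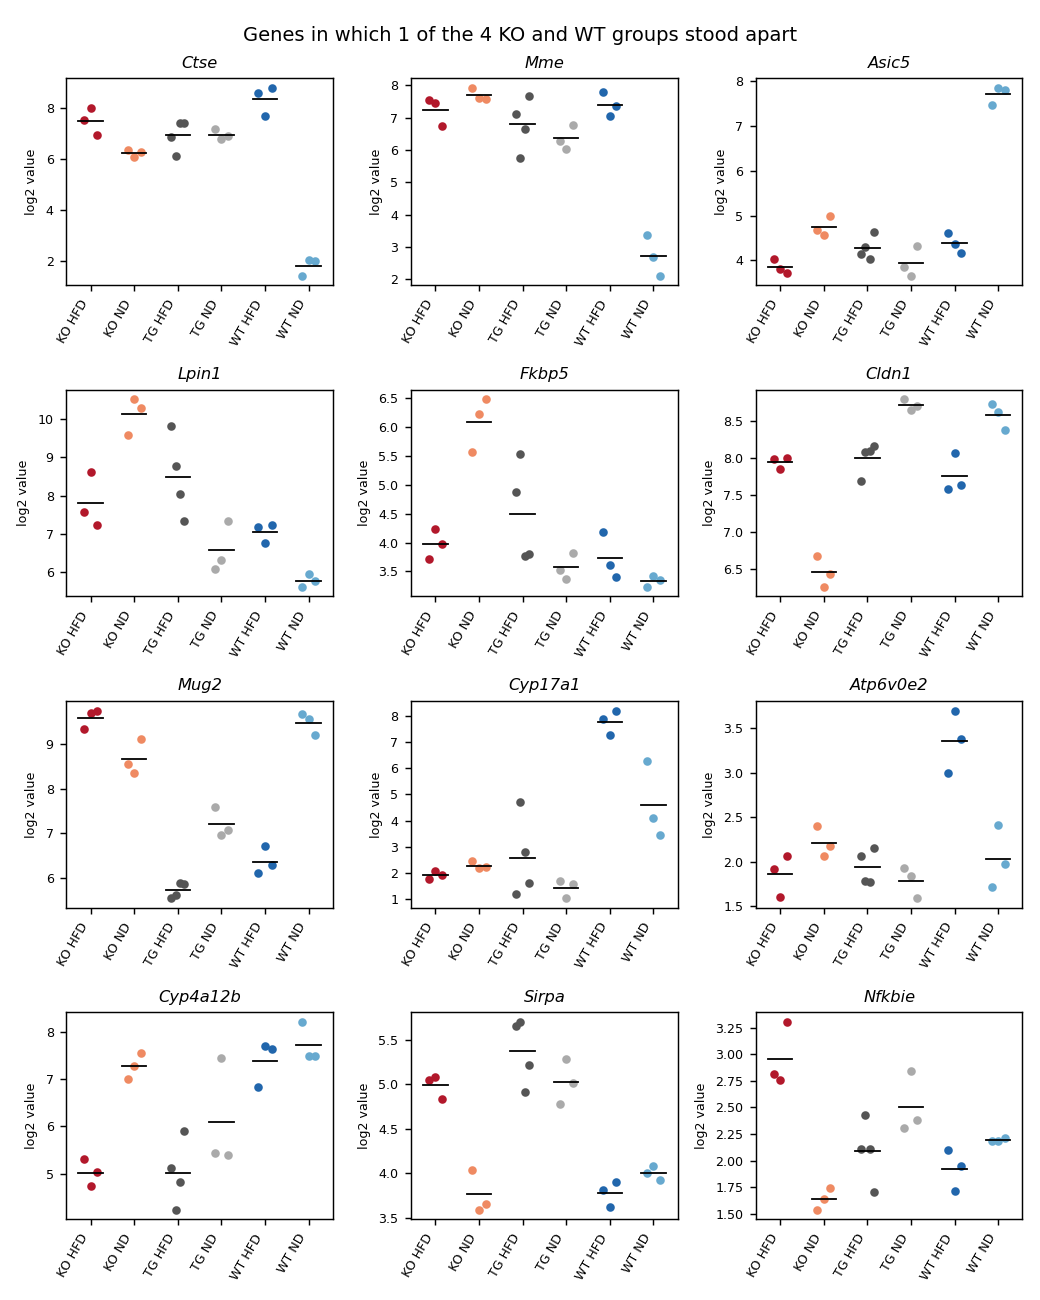
Log2 values of 12 called genes are plotted by array (points) with the group mean (bar), for KO HFD, KO ND, TG HFD, TG ND, WT HFD and WT ND from left to right. Among the 4 KO and WT groups, WT ND stands apart in Ctse, Mme and Asic5, KO ND in Lpin1, Fkbp5 and Cldn1, WT HFD in Mug2, Cyp17a1 and Atp6v0e2, and KO HFD in Cyp4a12b, Sirpa and Nfkbie, while TG HFD lies with KO HFD in Cyp4a12b, both TG groups lie with KO HFD in Sirpa, and TG HFD is below WT HFD in Mug2.

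WT HFD stood apart in 17 called genes, and the largest interaction among them was that of Mug2. This gene, which encodes the plasma protease inhibitor murinoglobulin, was at 9.35, 9.70 and 9.76 in KO HFD, 8.57, 8.35 and 9.12 in KO ND, 6.10, 6.71 and 6.29 in WT HFD and 9.68, 9.57 and 9.22 in WT ND. It fell on HFD by 3.12 in WT (adjusted p = 1.3e-05) and its diet effect in KO was 0.92 (adjusted p = 0.077), an interaction of 4.05 (SE 0.31, adjusted p = 0.000106). Mug2 was the only one called of 12 genes of the alpha-1-antitrypsin and alpha-macroglobulin families (list median 0.09). TG arrays lay lower still on HFD, between 5.54 and 5.88, and at 7.60, 6.97 and 7.08 on ND. Serpina1d and Serpina1e of the same list were lower in KO than in WT on both diets. The differences were -9.26 and -4.36 on ND and -8.14 and -2.28 on HFD. Their interactions of 1.12 and 2.08 did not pass (adjusted p = 0.425 and 0.159). Serpina1d was dim in KO, with means of 2.52 on HFD and 1.78 on ND. Mug and Serpina1 genes have near-identical copies, and a probe set may read more than 1 of them.

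Drug- and steroid-metabolising enzymes were among the genes high in WT HFD. Cyp17a1, the steroid hydroxylase and lyase, was at 1.78, 2.08 and 1.93 in KO HFD, 2.44, 2.17 and 2.21 in KO ND, 7.88, 7.25 and 8.20 in WT HFD and 6.28, 4.10 and 3.45 in WT ND, so that it was low in all KO arrays on both diets. The interaction was -3.51 (SE 0.73, adjusted p = 0.0428). Cyp2c38 (-2.56, adjusted p = 0.0461), the sulfotransferase Sult1a1 (-1.17, adjusted p = 0.0421) and the proton pump subunit gene Atp6v0e2 (-1.67, adjusted p = 0.0202) were also highest in WT HFD, while Trim12a of the TRIM family was lowest there (2.75, adjusted p = 0.0222). Without 10, 9, 10, 2 and 4 arrays in the order given these calls were lost, with the highest adjusted p at 0.11 for Cyp17a1 without WT ND replicate 2, 0.116 for Cyp2c38 and 0.105 for Sult1a1 without KO HFD replicate 1, 0.0556 for Atp6v0e2 without WT HFD replicate 3 and 0.0648 for Trim12a without KO ND replicate 2. Of 25 xenobiotic P450 genes 2 were positive and 1 negative (list median -0.12), and of 30 conjugating enzymes 1 each (median -0.04). The shares of all genes were 0.564% positive and 0.505% negative.

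KO HFD stood apart in 9 called genes, 8 of them high. Sirpa, an inhibitory receptor of myeloid cells that binds CD47, was at 5.05, 5.09 and 4.84 in KO HFD, 4.04, 3.59 and 3.66 in KO ND, 3.81, 3.62 and 3.91 in WT HFD and 4.01, 4.08 and 3.93 in WT ND, with all KO HFD arrays above the other 9 (interaction 1.46, SE 0.20, adjusted p = 0.00455). Nfkbie, an inhibitor of NF-kappa-B, had 1.59 (SE 0.22, adjusted p = 0.00449), the vesicle GTPase Rab27a 1.19 (adjusted p = 0.0135) and Cyth4, an exchange factor of blood cells, 1.76 (adjusted p = 0.041). The 1 gene lowest in KO HFD was Cyp4a12b, a male-biased fatty acid hydroxylase, at 5.31, 4.74 and 5.03 in KO HFD, 6.99, 7.28 and 7.55 in KO ND, 6.83, 7.70 and 7.65 in WT HFD and 8.21, 7.48 and 7.50 in WT ND (interaction -1.91, adjusted p = 0.0302). Cyth4 and Cyp4a12b lost their calls without 10 and 8 arrays, at 0.104 without KO HFD replicate 1 and 0.0834 without WT HFD replicate 3. TG arrays of both diets lay with KO HFD for Sirpa (4.92 to 5.70 on HFD, 4.78 to 5.28 on ND) and Cyth4 (4.66 to 5.43 on HFD, 4.39 to 5.48 on ND), and so did the TG HFD arrays for Cyp4a12b (4.24 to 5.90).

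Markers of Kupffer cells and macrophages had overlapping levels in KO HFD, KO ND and WT HFD. Their mean level over 14 markers was 4.64 to 5.30 in KO HFD, 4.43 to 4.99 in KO ND, 4.40 to 4.75 in WT HFD and 4.47 to 4.60 in WT ND, the last just below KO HFD. In TG livers it was 5.76 to 6.30 on HFD and 5.88 to 6.43 on ND, above all 12 other arrays. None of the 14 had an interaction called by limma (list median 0.27, 5 with an unadjusted p under 0.05), and the nearest was the scavenger receptor Marco at 2.46 (adjusted p = 0.0856), with WT ND highest. The part of these cells in the values of Sirpa and Cyth4 was not tested, and in whole liver fewer cells of a type and less RNA per cell cannot be told apart. Of 9 markers of T and NK cells 1 was called, Cd3g (0.71, adjusted p = 0.0472, lost without 11 arrays and at 0.118 without KO ND replicate 2), at a level below 2 on all 12 arrays. Markers of B cells (7 measured), neutrophils (10), sinusoidal endothelium (9), stellate cells (11), bile duct (5), adipocytes (4), pancreas (4), mesothelium (3), muscle (3) and red cells (1) had no call by limma, with an unadjusted p under 0.05 in 1 gene for B cells, 2 for sinusoidal endothelium, 2 for stellate cells, 1 for bile duct and 0 for the rest. The mean of the stellate markers was higher on every KO HFD array (4.54 to 4.98) than on any array of KO ND (4.02 to 4.48), WT HFD (4.05 to 4.49) or WT ND (4.04 to 4.31), with a list median of 0.42. The 26 cytokines, chemokines and adhesion molecules, of which Ccl9 alone was called, showed the same, at 3.12 to 3.38 in KO HFD, 2.76 to 2.93 in KO ND, 2.73 to 2.87 in WT HFD and 2.92 to 2.97 in WT ND (list median 0.44). These levels were not particular to KO HFD. In TG livers the cytokine list was at 3.21 to 3.75 on HFD and 3.39 to 3.74 on ND, within or above the KO HFD range. The stellate markers were at 4.33 to 4.75 in TG HFD, reaching into the KO HFD range, and at 4.325 to 4.54 in TG ND. The part of these cells and signals in the genes high in KO HFD was not tested. The lists of acute-phase proteins (24 genes), interferon response (25), extracellular matrix (28), cell cycle (30) and respiratory chain (27) had none either by limma, with medians between -0.06 and 0.28 and 1, 8, 5, 5 and 2 genes in this order with an unadjusted p under 0.05.

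No single group stood apart in 74 called genes, among them the 2 most positive interactions. Cyp2b13, a female-biased P450 of mouse liver, was at 4.76, 4.05 and 4.15 in KO HFD, 1.24, 0.70 and 0.86 in KO ND, 0.81, 1.35 and 0.99 in WT HFD and 0.71, 4.17 and 3.24 in WT ND. It was high in every KO HFD array and low in every KO ND and WT HFD array, while the 3 WT ND arrays spanned both levels, and the interaction was 5.04 (SE 0.87, adjusted p = 0.0178, and 0.0531 without KO ND replicate 2). Clec2h, a C-type lectin, was at 6.15, 5.28 and 6.51 in KO HFD, 4.12, 4.18 and 5.84 in KO ND, 3.80, 3.33 and 2.01 in WT HFD and 7.20, 6.24 and 6.76 in WT ND (interaction 4.96, SE 0.73, adjusted p = 0.00725), and all WT HFD arrays were below the rest. Trim30d of the TRIM family had 3.05 (adjusted p = 0.0181, and up to 0.0552 without WT ND replicate 2). Nr0b2, the nuclear receptor that represses bile acid synthesis, was at 5.78, 6.26 and 6.62 in KO HFD, 5.17, 5.07 and 5.26 in KO ND, 5.78, 5.76 and 5.83 in WT HFD and 6.17, 6.71 and 6.57 in WT ND (1.75, SE 0.27, adjusted p = 0.0106). It was the only one called of 24 genes of bile acid synthesis and transport (list median 0.12).

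Sex-biased liver genes were called in both directions, where 0.564% of all genes were positive and 0.505% negative. Of 18 male-biased genes Selenbp2 was positive and Cyp4a12a (-1.33, adjusted p = 0.0178) and Cyp4a12b negative, with a list median of 0.0007. Of 15 female-biased genes Cyp2b13 was positive and Cyp17a1, the flavin monooxygenase Fmo2 (-1.68, SE 0.25, adjusted p = 0.00795) and the peroxisomal transporter Abcd2 (-2.81, adjusted p = 0.0476) negative, with a median of -0.16. Fmo2 was at 5.42, 4.97 and 5.00 in KO HFD, 5.83, 6.01 and 6.45 in KO ND, 4.50, 4.74 and 4.48 in WT HFD and 3.98, 3.69 and 3.89 in WT ND, and none of the 4 groups overlapped another. Cyp4a12a lost its call without WT ND replicate 2 alone (0.0528), and Abcd2 without 10 arrays, at 0.125 without WT HFD replicate 1. Cyp2b and Cyp4a genes have close copies that can share probes.

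Of 62 genes measured of the pathway on which Kcp acts 2 were called (3.23%), against 1.07% of all genes. The share over all genes includes dim genes, which were 56.6% of genes tested and 11.0% of called genes. The part of expression level in the difference between these shares was not tested. Of 25 BMP and TGF-beta ligands and extracellular modulators 1 was called, the ligand Bmp7, at 2.64, 2.23 and 2.30 in KO HFD, 3.88, 2.84 and 3.24 in KO ND, 3.38, 3.66 and 3.24 in WT HFD and 2.40, 1.80 and 2.97 in WT ND (-1.96, SE 0.41, adjusted p = 0.0428). Its WT ND range overlapped those of KO HFD and KO ND. None of 22 receptors and SMADs was called by limma (4 had an unadjusted p under 0.05), and of 15 targets and iron genes 1, the helix-loop-helix inhibitor Id2 (1.13, SE 0.23, adjusted p = 0.0414). Bmp7 and Id2 lost their calls without 10 and 9 arrays, at 0.0984 without KO HFD replicate 3 and 0.102 without WT HFD replicate 3. The list medians were 0.02, 0.05 and 0.0042 in the same order. The fixed target genes did not pass, with Id1 at -0.25 (SE 0.30, adjusted p = 0.816), the inhibitory SMAD gene Smad7 at -0.15 (SE 0.29, adjusted p = 0.901) and the hepcidin gene Hamp at 0.37 (SE 0.30, adjusted p = 0.714). The fibrosis gene Col1a1 (-0.21, SE 0.66) and the cytokine gene Tnf (-0.16, SE 0.33) did not pass either (adjusted p = 0.946 and 0.91).

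The TG arrays show for each gene whether another genotype on the same diet resembled the group that stood apart. Only called genes were counted, with no share over all genes. Agreement of all arrays asks more of the 4 TG HFD arrays than of the 3 TG ND arrays. In 39 of the 73 genes with WT ND apart all 3 TG ND arrays were nearer to WT ND than to the other 3 groups, and in 15 none was. The 4 TG HFD arrays were all nearer to WT ND in 5 of these genes and none was in 43. For the 64 genes with KO ND apart the TG ND arrays were all nearer to KO ND in 4 and none was in 50, and of the TG HFD arrays all were in 3 and none in 16. Of the 9 genes with KO HFD apart the TG HFD arrays were all nearer to KO HFD in 3 and none was in 2, and the TG ND arrays were all nearer in 2 and none was in 3. Of the 17 with WT HFD apart the TG HFD arrays were all nearer to WT HFD in 4 and none was in 10, and the TG ND arrays were all nearer in 3 and none was in 12. TG ND lay with WT ND for Usp2 (3.33, 3.42 and 4.13), Ciart (1.68, 2.02 and 2.32), Thrsp (7.69, 7.68 and 7.96) and Coq10b (4.46, 4.74 and 5.05). No TG array of either diet lay nearer to WT ND in 13 of the 73, Ctse, Mme, Asic5, Rian and Rps3a1 among them. TG HFD arrays were spread for Lpin1 (9.82, 8.78, 8.04 and 7.35) and Fkbp5 (4.88, 5.53, 3.76 and 3.80), between the level of KO ND and that of the other groups.

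Since the clock score differed between the groups, each interaction was also fitted with the score of the array as a covariate. The number of called genes dropped to 26, of which 24 were among the 237, all 24 with the same sign, and 14 of the 24 had WT ND apart and 4 KO ND. All 237 interactions kept their sign and their median size was 1.40 with the score, against 1.42 without it, while the median standard error was 0.334 with it and 0.254 without it. At least 75% of the size stayed in 218 genes. Ctse (-5.70, adjusted p = 0.0031), Mme (-5.42, adjusted p = 0.005), Usp2 (-3.22, adjusted p = 0.0031), Mug2 (3.93, adjusted p = 0.005), Lpin1 (-3.99, adjusted p = 0.038) and Cldn1 (2.20, adjusted p = 0.027) kept their calls. Fkbp5 (-2.48, adjusted p = 0.11), Ciart (-2.71, adjusted p = 0.11), Wee1 (-2.66, adjusted p = 0.16) and Sirpa (1.24, adjusted p = 0.15) did not. The score differed between the groups and holds Ciart and Per1 among its genes, so that clock state and group cannot be told apart by this fit. The slope on the score is set by differences within groups alone. The SD of the score was 0.96 in WT ND, against 0.26 in KO HFD, 0.17 in KO ND and 0.16 in WT HFD. The slope thus rests mostly on the 3 WT ND arrays, and the kept signs and sizes do not measure the part of clock state.

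**Figure D5:**
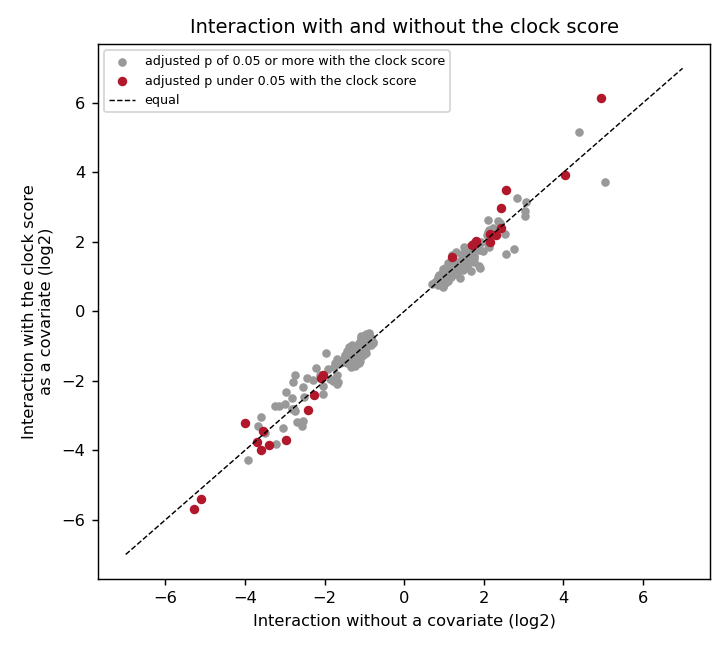
Each point is 1 of the 237 called genes, with its interaction without a covariate (x axis, log2) and with the clock score of each array as a covariate (y axis, log2), in red where the adjusted p stayed under 0.05. The points follow the dashed line of equal values, with a median size of 1.40 with the score and 1.42 without it, and 24 are red.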

How the data were processed

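RNA of whole liver was hybridised to 1-colour Affymetrix arrays after biotin labelling, 1 array per mouse, per the labels' protocols. The deposited table holds 1 log2 value per probe set and array, normalized between arrays by the authors. Of tools, limma, affy and RMA are listed per the submitters' processing notes, without versions and without saying what each did. That the values are RMA output on a log2 scale is inferred from this and from their range, and another base would scale every difference by 1 factor. Array medians lay between 0.983 and 1.075, and 1.80% of the values of the 12 arrays were below 0. Arrays have no read depth, so that the number of mice limits the precision.

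The platform annotation gives 1 symbol for 23521 of 41345 probe sets, several for 1814 and none for 16010. Through Entrez identifiers 23328 matched RefSeq (GRCm38.p6), and 0 symbols changed. For 1082 genes with several probe sets the one with the highest mean over the 12 arrays was used, which gave 22180 genes with no filter on dim genes, 56.6% of them below a mean of 2.

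The 12 arrays were fitted as 4 group means with lmFit and eBayes of limma 3.58.1 under R 4.3.3 (degrees of freedom: residual 8, prior 4.72). Contrasts were the interaction, the diet effects in KO and WT and KO against WT on each diet, with two-sided p-values adjusted by Benjamini-Hochberg over all genes and called under 0.05. Adjusted p-values are from this model, or from its refits where a left-out array, the clock score or another alternative is named. The model was tested only on data simulated by its own assumptions, with independent genes and equal spread in all groups. That test does not cover unequal spread or genes that vary together. Groups that stood apart, TG positions, gene lists and the clock score were described with no test. Per2 and other list genes with no probe set of a single symbol were not analysed here.

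Named genes were the 15 most positive and 15 most negative called interactions, the 5 largest for each group that stood apart, up to 4 members of each list with a called gene, and fixed genes whatever their value. The text names a selection, and says where a gene was chosen after its values were seen. The comparisons, gene lists and rules were chosen with earlier results of these data known. Alternatives covered the arrays in the fit, dim genes, probe sets, scaling, variance model, array weights, the clock score, left-out arrays and the threshold.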

Additional observations from a re-analysis of the deposited data

Results flagged for a closer look

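The 237 genes whose diet effect differed between KO and WT by the test of the difference itself are all results of this kind, and their largest members are described above. Cldn1 (2.31) stands out among the named ones because its diet effect passed in both genotypes with opposite signs.

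In the groups of 4 arrays or more, which here is TG HFD alone, 1 array lay far from the other 3 in 4 of the 64 named genes with a called interaction. TG HFD had a Cldn1 value of 7.68, below the other 3 arrays at 8.08, 8.08 and 8.16. For Fmo2 1 array was at 4.12, below 4.38, 4.39 and 4.42. Mogat1 had 1 array at 1.05, above 0.83, 0.83 and 0.84, all in the dim range. Usp2 had 1 array at 7.28, above 6.49, 6.46 and 6.52. Chance flags about 1 in 20 such groups, and the TG arrays do not enter the interaction.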

How the results depend on the processing

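No paired analysis was possible because no animal number in the labels is shared between groups. No interaction of a called gene changed sign under any alternative, and over 82 named genes and 21 alternatives 1296 results stayed on their side of the threshold, 411 called ones lost it and 11 gained it.

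Against 237 interaction calls, 26 were made with the clock score as covariate, 92 with all probe sets tested, 48 at an adjusted p under 0.01 and, in an alternative chosen after the data were seen, 71 without both WT ND replicate 2 and WT HFD replicate 1; leaving out 1 array gave 97 to 241. For the diet effect in KO (219) these were 43 with the clock score, 66 with all probe sets, 24 at 0.01, 342 with genes of a mean of at least 2 and 39 to 225 without 1 array. For the diet effect in WT (245) they were 6 with the clock score, 110 at 0.01, 98 without both arrays, 387 with the mean of at least 2 and 140 to 272 without 1 array. KO against WT on ND (622) gave 40 with the clock score, 286 at 0.01, 345 without both arrays and 369 to 612 without 1 array, and KO against WT on HFD (71) gave 46, 25, 31 and 35 to 74 in the same order.

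Genes with a single group apart (163) numbered 20 with the clock score, 57 without both arrays, 74 when the distance had to exceed 2 times the range, and 64 to 154 without 1 array. Those with KO ND apart (64) numbered 4, 14, 24 and 16 to 62 under the same settings and 39 with all 19 arrays in the fit, and those with WT ND apart (73) 15, 33, 39 and 39 to 86, and 113 with genes of a mean of at least 2. Leaving out 1 array takes a mouse from its group, and the clock score takes a degree of freedom; other causes of these shifts were not tested. With all 19 arrays 183 genes were called, 145 of them shared with the 237. Signal near background limits the 56.6% of genes below a mean of 2.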

Other observations

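Beyond the genes taken by the naming rule, several called genes were chosen after their values were seen because their role is well known. Nnt, the mitochondrial transhydrogenase that makes NADPH, was at 6.89, 6.82 and 6.72 in KO HFD, 6.41, 6.48 and 6.54 in KO ND, 6.58, 6.50 and 6.34 in WT HFD and 5.34, 5.28 and 5.31 in WT ND, with all WT ND arrays low and close together (interaction -0.83, SE 0.16, adjusted p = 0.0259, and 0.0679 without KO HFD replicate 3). Aacs, which activates acetoacetate for lipid synthesis, was at 7.11, 7.54 and 6.35 in KO HFD, 7.43, 6.97 and 6.46 in KO ND, 6.74, 6.46 and 7.53 in WT HFD and 3.71, 3.90 and 4.71 in WT ND (-2.76, adjusted p = 0.0264, and 0.0757 without WT ND replicate 2). Socs2, the feedback inhibitor of growth hormone signalling, was high in KO ND alone, at 2.40, 1.13 and 2.57 in KO HFD, 4.71, 4.53 and 4.67 in KO ND, 3.04, 2.95 and 2.58 in WT HFD and 1.96, 2.50 and 3.47 in WT ND (-2.81, adjusted p = 0.0279, and 0.0761 without WT ND replicate 2).

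St3gal5, which makes the ganglioside GM3, was also highest in KO ND, at 8.30, 8.57 and 8.73 there, against 6.91, 6.56 and 6.39 in WT ND (interaction -2.03, SE 0.32, adjusted p = 0.0125). The kinase gene Camk1d was lowest in KO ND, at 3.60, 4.43 and 4.72 there and at 6.64, 7.03 and 6.67 in WT ND, and its interaction was 2.14 (SE 0.32, adjusted p = 0.00907). Mlkl, the executor of necroptosis, was highest in KO HFD and had 4.85, 4.63 and 4.55 there, against 3.42, 3.71 and 3.67 in WT HFD (interaction 1.63, SE 0.23, adjusted p = 0.0052).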
